A study of Mus musculus with 6 samples.

Results

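The genes described here are 10 genes of the basal, or myoepithelial, layer of the mammary gland: Acta2, Actg2, Myh11, Mylk, Myl9, Cnn1 and Tagln, which encode parts of the smooth muscle contractile apparatus, the oxytocin receptor gene Oxtr, the basal transcription factor gene Trp63, and the cadherin gene Cdh3. They were chosen by name among the 55487 genes of the deposited count table, and each name matched 1 gene. The RNA came from mammary epithelial cells (MECs) of 10-week-old BALB/c females, 3 wild-type (WT) and 3 IL-21isoTg, and each mouse gave its own library. The IL-21isoTg mice carry a transgene for a membrane-bound isoform of IL-21 directed to T cells. The females were virgin and at mixed stages of the estrous cycle. MECs were the cells left after those carrying CD45, CD31 or CD140a, markers of leukocytes, endothelium and fibroblasts, were removed with magnetic particles. No step selected basal from luminal cells, so each library mixed the epithelial layers, and cells of vessel walls that lack these 3 markers could remain.

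Myoepithelial cells form the outer layer of mammary ducts and alveoli. They contract when oxytocin, released during suckling, binds its receptor, and so press milk toward the nipple. Calcium then activates myosin light chain kinase, the product of Mylk, which phosphorylates the light chain encoded by Myl9, and the smooth muscle myosin heavy chain of Myh11 pulls on filaments of the actins of Acta2 and Actg2. Calponin (Cnn1) and transgelin (Tagln) bind these filaments. Trp63 encodes p63, a transcription factor that maintains the basal layer of stratified and glandular epithelia, and Cdh3 encodes P-cadherin, the adhesion protein of basal cells. Genes of smooth muscle contraction are commonly switched on through serum response factor, which binds the CArG box, a run of CC, then 6 bases that are A or T, then GG.

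Promoter stretches are shown as background to these genes, and no link between their motifs and the levels given further on was tested. RefSeq promoters on GRCm38.p6 were found for 5 of the 10 genes, namely Acta2, Mylk, Cnn1, Myl9 and Oxtr; Myh11, Tagln, Trp63, Cdh3 and Actg2 had none in the table used. In the 250 bases before the RefSeq start, Myl9 held a CArG box, a motif that 1.47% of 32851 promoters of this length held. Myl9 and Acta2 also held the box with 1 core base other than A or T, once and 2 times, against 7.24% of all promoters with at least 1. The pattern of the box is its own reverse complement, so a search on 1 strand covers both. The MCAT element, CATTCC on either strand, was found in Acta2 and Mylk and in 12.6% of all promoters, and it overlapped none of the CArG boxes. The Mylk window begins at base 34784700 of chromosome 16, inside the annotated gene, which begins at base 34745210 on the plus strand. The RefSeq start used for Mylk is thus not the annotated gene start. Cnn1 and Oxtr held none of these motifs in this window. For Myl9 the 206 bases before the first annotated exon base are given (chr2:156775214-156775419, plus strand), with the boxes in capitals. For Acta2, 217 of the 250 bases lie in an exon of the GENCODE M21 annotation, so only 30 bases around each motif are given, at bases -84 to -75 (chr19:34255438-34255467), -34 to -25 (chr19:34255388-34255417) and -146 to -141 (chr19:34255502-34255531) from the RefSeq start on the minus strand, again with the motif in capitals.
Myl9 upstream stretch: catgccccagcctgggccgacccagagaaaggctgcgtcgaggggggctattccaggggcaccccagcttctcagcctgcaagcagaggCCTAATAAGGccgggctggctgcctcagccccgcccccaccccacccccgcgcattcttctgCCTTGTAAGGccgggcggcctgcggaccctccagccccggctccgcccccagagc
Acta2 CArG-like site nearer the MCAT element: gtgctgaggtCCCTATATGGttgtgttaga
Acta2 CArG-like site nearer the start: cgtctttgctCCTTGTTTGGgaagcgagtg
Acta2 MCAT site: gagcagaacagaGGAATGcagtggaagaga

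Acta2 and Actg2 are close relatives of each other and of the other actin genes, so it was checked how far their reads can be told apart. Over 1101 coding bases the 2 genes were 84.4% identical, with a longest identical run of 29 bases. The longest run that Acta2 shared with another actin gene was 56 bases, with Actg1, and for Actg2 it was 38 bases, with Actc1. By the read length that the paper states, reads before trimming were longer than each of these runs. The assignment of reads between actin genes was not itself tested.

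The libraries held between 15902886 and 25719244 counts on genes, without a separation of the genotypes (two-sided exact permutation p = 0.7). All 10 genes passed the filter on low counts, and the smallest count of any of them was 199, well above the floor of 3 counts. Il21, the gene behind the genotype, had 0, 0 and 37 counts in WT libraries and 795, 216 and 131 in IL-21isoTg libraries. A list of 15 salivary gland genes took 4.92% to 23% of the counts in 5 libraries and 41% in IL-21isoTg mouse 3. The levels given below belong to the whole preparation, including any salivary gland cells in it. The defining luminal markers Krt8, Krt18 and Epcam and the basal markers Krt5 and Krt14 were present in every library, while genes of skeletal muscle were nearly absent, with a summed level of 4.85 to 12.4 CPM (counts scaled to library size with TMM) over 7 tested genes.

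Acta2, which encodes the smooth muscle α-actin that gives myoepithelial cells their contractile filaments, was by far the most abundant of the 10 genes. Per kilobase of exon its mean level over the 6 mice was 319 CPM, above the 208 CPM per kilobase of Krt14, a basal keratin gene, and below the 788 and 560 CPM per kilobase of the cytoskeletal actin genes Actg1 and Actb. Tagln followed with 155 and Myl9 with 129 CPM per kilobase, then Myh11 with 55.1 and Cnn1 with 35.4. Actg2, the enteric smooth muscle actin, was far lower than Acta2, with 15.7 CPM per kilobase, and Mylk had 10.9. Oxtr had 9.19, Cdh3 5.53 and Trp63 2.87 CPM per kilobase. Several neighbours in this order were not separated beyond the spread between mice, because 1 library reversed them. Actg2 was above Cnn1 in WT mouse 1 (19.3 against 15.9 CPM per kilobase) and below Mylk in WT mouse 2 (9.97 against 10.9). Oxtr was above Mylk in IL-21isoTg mouse 2 (17.2 against 12.3) and below Cdh3 in WT mouse 1 (3.48 against 7.64). The order of the other neighbours, from Acta2 down to Cnn1 and from Cdh3 to Trp63, held in all 6 libraries.

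In the comparison of genotypes, 9 of the 10 genes had a higher fitted level in IL-21isoTg MECs, where 47.9% of all genes tested had one, and none passed the threshold. After Benjamini-Hochberg adjustment over 17165 genes, edgeR's quasi-likelihood fit called 0 of the 10 at 0.05, and 0% of all genes tested. DESeq2 called 0 of the 10 and 0.472% of all genes, edgeR's likelihood ratio test 0 of the 10 and 0.379%, and limma-voom 0 of the 10 and 0% of all genes. At an unadjusted p under 0.05 in the quasi-likelihood fit, 4 of the 10 differed, against 5.82% of all genes. Cnn1, Tagln, Myl9 and Oxtr were on the higher side (3.19% of all genes) and 0 on the lower side (2.63%). The median log2 fold change of the 10 genes was 0.60, and that of all genes tested was -0.02. In 0 of the 10 genes did all IL-21isoTg mice lie on one side of all WT mice, while 12.1% of all genes were separated in this way (5.54% higher and 6.54% lower).

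The actin gene Acta2 (ENSMUSG00000035783, chromosome 19, 34241090 to 34255590, minus strand of GRCm38) had 505, 616 and 551 CPM in the WT mice and 987, 1013 and 529 CPM in the IL-21isoTg mice. IL-21isoTg mice 1 and 2 thus stood above every WT mouse, and IL-21isoTg mouse 3 lay among them. The means were 557 ± 55.6 and 843 ± 272 CPM (SD, n = 3 each), a log2 fold change of 0.60 (standard error 0.28, 95% interval -0.05 to 1.24, edgeR adjusted p = 0.809). Myh11 (chromosome 16, 14194535 to 14291372), the myosin heavy chain, had 179.9, 393 and 385 CPM in WT mice and 667, 516 and 372 CPM in IL-21isoTg mice. Here WT mouse 1 was far below the other WT mice, and IL-21isoTg mouse 3 was again within the WT range. Its log2 fold change was 0.70 (standard error 0.34, 95% interval -0.09 to 1.49, edgeR adjusted p = 0.809).

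Mylk encodes the kinase and Myl9 its light chain target. Mylk levels were 65.1, 123 and 116 CPM in WT mice and 184, 139 and 111 CPM in IL-21isoTg mice. Those of Myl9 were 93.7, 134 and 129 CPM against 203, 204 and 132 CPM. WT mouse 1 was lowest for each gene and the top places were held by IL-21isoTg mice 1 and 2. The log2 fold changes were 0.51 for Mylk (standard error 0.29, 95% interval -0.15 to 1.17) and 0.60 for Myl9 (standard error 0.23, 95% interval 0.07 to 1.13), with an edgeR adjusted p of 0.809 for each. Antisense genes share exon sequence with Mylk, Gm21691 over 224 bp and E130310I04Rik over 548 bp, and their counts were 11% to 17.4% and 4.57% to 8.66% of the Mylk counts.

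Of the actin-binding proteins, Cnn1 had the larger difference. Its levels were 43.4, 79.0 and 75.4 CPM in WT mice and 143, 165 and 75.4 CPM in IL-21isoTg mice, with means of 66.0 ± 19.6 and 128 ± 46.9 CPM (SD, n = 3 each). The log2 fold change was 0.96 (standard error 0.33, 95% interval 0.19 to 1.73, edgeR adjusted p = 0.809). Tagln had 172, 256 and 268 CPM in WT mice and 446, 457 and 251 CPM in IL-21isoTg mice. For these genes too, only IL-21isoTg mice 1 and 2 were above the WT range. Its log2 fold change was 0.73 (standard error 0.28, 95% interval 0.08 to 1.38, edgeR adjusted p = 0.809). The Tagln value is uncertain, because the antisense gene Gm48529 shares 1241 bp of its exons and had counts equal to 97.2% to 99.4% of the Tagln counts in every library. The protein-coding gene Pcsk7, on the other strand, shares a further 108 bp. The library kit keeps the strand, but how strand was handled in counting is not given in the sources used here, so reads of Tagln and Gm48529 cannot be told apart.

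Oxtr (ENSMUSG00000049112, chromosome 6, 112473683 to 112489943), the receptor through which oxytocin acts on these cells, had the largest fold change of the 10 genes. Its levels were 16.7, 30.2 and 32.9 CPM in WT mice and 73.9, 82.3 and 28.1 CPM in IL-21isoTg mice, from 301 to 2212 counts. IL-21isoTg mice 1 and 2 were each more than 2 times the highest WT mouse, and mouse 3 was below WT mice 2 and 3. The means were 26.6 ± 8.70 and 61.4 ± 29.2 CPM (SD, n = 3 each), a 2.31-fold difference (log2 fold change 1.21, standard error 0.41, 95% interval 0.25 to 2.17, edgeR adjusted p = 0.809). By the size of its fold change Oxtr was 316th of the 17165 genes tested, counted from the highest. An exact permutation test of the means, two-sided, gave p = 0.3 for Oxtr, where 3 mice against 3 cannot give less than 0.1.

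The plot of levels by mouse shows IL-21isoTg mice 1 and 2 on top and WT mouse 1 at the bottom for Acta2, Myh11, Mylk, Cnn1, Tagln, Myl9 and Oxtr, while the order of the mice between differed among these genes. Actg2 shared only the top, and Trp63 and Cdh3 neither. IL-21isoTg mouse 1 was above all WT mice in 8 of the 10 genes (25.2% of all genes tested), as was IL-21isoTg mouse 2 (22.3%), and IL-21isoTg mouse 3 in 0 (27.6%). WT mouse 1 was the lowest of the 6 mice in 7 of the 10 genes. How often this mouse was lowest over all genes tested was not counted.

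**Figure D1:**
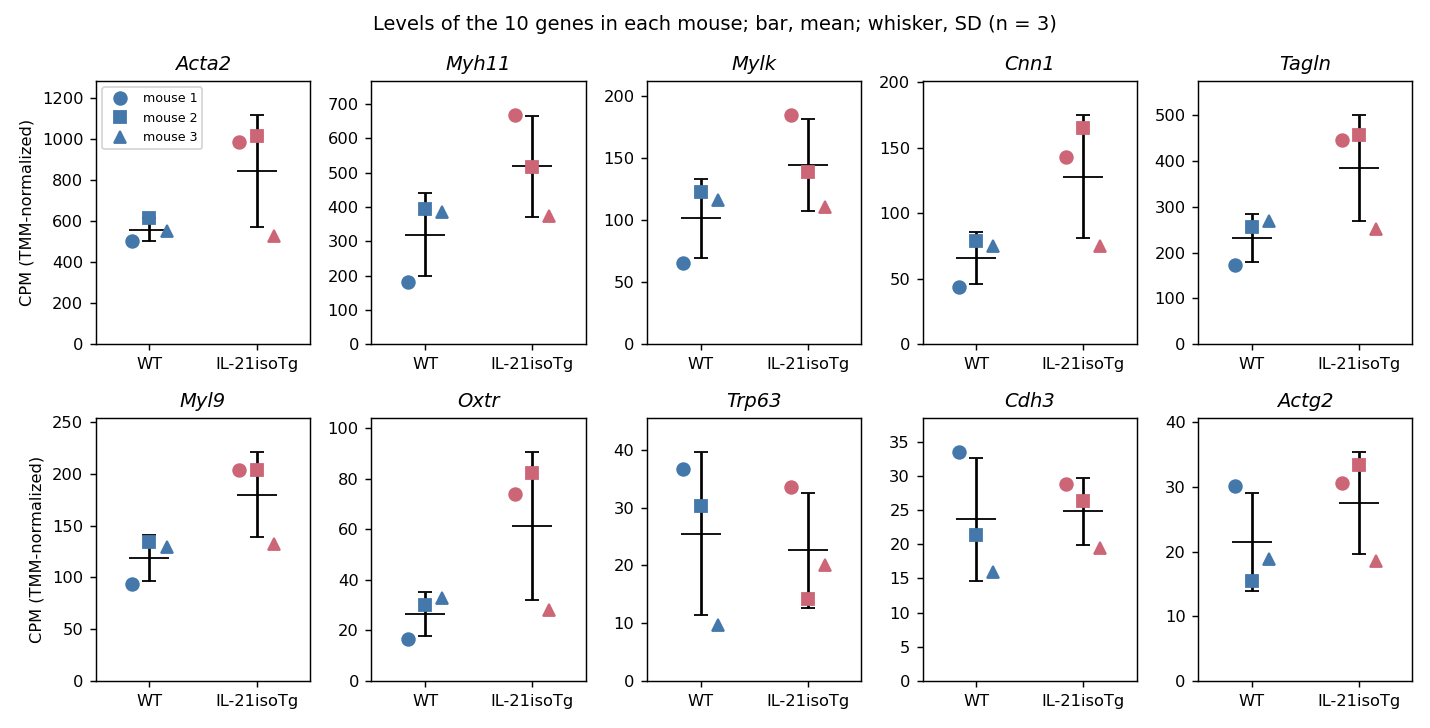
Level of each of the 10 genes in CPM after TMM normalization (vertical axis, from 0) in 3 WT and 3 IL-21isoTg mice; symbols mark the mouse number, bars the mean and whiskers the SD. IL-21isoTg mice 1 and 2 lie above all WT mice for 8 of the 10 genes each, and IL-21isoTg mouse 3 lies within the WT range for all 10.

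Trp63 (ENSMUSG00000022510, chromosome 16, 25683763 to 25892102), the gene of p63, did not follow the contractile genes. It had 36.6, 30.2 and 9.63 CPM in WT mice and 33.6, 14.3 and 20.1 CPM in IL-21isoTg mice. WT mouse 1, the lowest mouse for Acta2, Myh11 and Oxtr, was the highest for Trp63, and the genotypes overlapped throughout. The log2 fold change was -0.17 (standard error 0.49), with a wide 95% interval of -1.31 to 0.97 (edgeR adjusted p = 0.96).

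Cdh3, the P-cadherin gene, had 33.5, 21.4 and 16.02 CPM in WT mice and 28.8, 26.4 and 19.4 CPM in IL-21isoTg mice. Its order of mice resembled that of Trp63 at the ends, with WT mouse 1 highest and WT mouse 3 lowest. The log2 fold change was 0.07 (standard error 0.29, 95% interval -0.60 to 0.75, edgeR adjusted p = 0.97). Actg2, the other smooth muscle actin, stood between these patterns. Its levels were 30.1, 15.5 and 18.9 CPM in WT mice and 30.6, 33.4 and 18.6 CPM in IL-21isoTg mice, so that WT mouse 1 was close to IL-21isoTg mouse 1. The log2 fold change was 0.36 (standard error 0.31, 95% interval -0.36 to 1.08, edgeR adjusted p = 0.848).

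**Figure D2:**
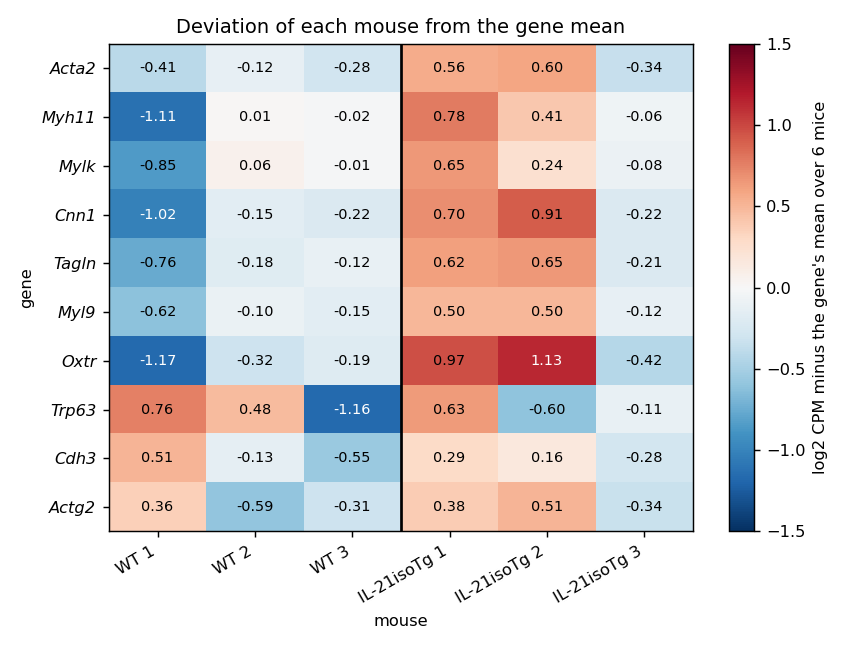
Deviation of each mouse (columns) from the mean of each gene (rows) over 6 mice, on the log2 CPM scale with a prior count of 2. Oxtr spans from -1.17 in WT mouse 1 to 1.13 in IL-21isoTg mouse 2, whereas Trp63 is highest in WT mouse 1 (0.76) and lowest in WT mouse 3 (-1.16).

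The likeness of profiles over the 6 mice was measured as the root mean square difference of centred log2 CPM, among 15387 other genes with a mean of at least 1 CPM. Myl9 was the 13th and Tagln the 34th nearest gene to Acta2, and Mylk and Cnn1 were within the nearest 3.35% and 3.39%. Myh11 (9.32%), Actg2 (13%), Oxtr (23.9%) and Cdh3 (28.8%) were farther away, and Trp63 was among the most distant genes (88.4%). This distance grows with the size of the deviations as well as with a different order of mice. Oxtr and Acta2 shared their lowest mouse, WT mouse 1, and their highest, IL-21isoTg mouse 2. Between these mice Oxtr ran from -1.17 to 1.13 and Acta2 from -0.41 to 0.60. The 5 nearest genes to Acta2 were Adamts17, Nrtn, Vwa1, Tpm2 and Slc25a45, at 0.096 to 0.128 on the log2 scale. Tpm2 encodes a tropomyosin of contractile filaments, Adamts17 a secreted metalloprotease, Nrtn the growth factor neurturin and Vwa1 a matrix protein. Cdh3 was the 122nd nearest gene to Trp63, and the 5 nearest were Gm15975, Rgs9, Naip2, Pmel and Tdrkh, all at means of a few CPM or less. These ranks are descriptions over 6 libraries that share the same normalization.

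Ratios of counts within a library do not depend on library size. The Tagln to Acta2 ratio was 0.341 to 0.487 in WT mice and 0.451 to 0.475 in IL-21isoTg mice, and that of Myl9 to Acta2 was 0.185 to 0.235 and 0.201 to 0.25. Of the 9 other genes 1, Cnn1, had a ratio to Acta2 that was separated between the genotypes, where 23% of all other genes tested had one. It was 0.086, 0.128 and 0.137 in WT mice and 0.145, 0.163 and 0.143 in IL-21isoTg mice. Oxtr to Acta2 was 0.033, 0.0491 and 0.0597 in WT mice and 0.0749, 0.0813 and 0.0531 in IL-21isoTg mice, which overlap. Set against Krt14, the basal keratin gene, Acta2 had ratios of 1.54, 1.58 and 2.47 in WT mice and 1.85, 2.58 and 1.62 in IL-21isoTg mice. Of the 10 genes 0 were separated between genotypes when divided by Krt14 (12.7% of all other genes), by Krt5 (3.15%) or by the luminal keratin gene Krt8 (5.31%). In bulk libraries such as these, more or fewer cells of a type and more or less RNA per cell cannot be told apart.

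**Figure D3:**
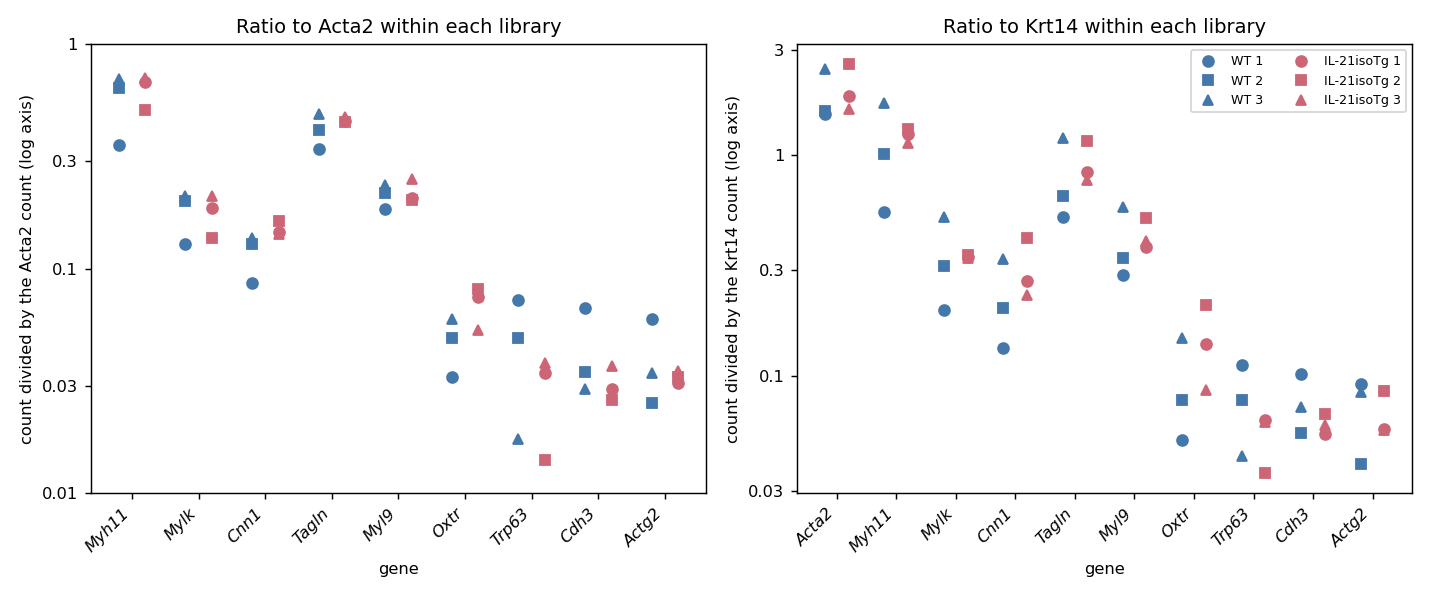
Count of each gene divided by the Acta2 count (left) or the Krt14 count (right) of the same library, on log axes, in WT (blue) and IL-21isoTg (red) mice, with symbols for the mouse number. Against Krt14 the genotypes overlap for all 10 genes, and against Acta2 for all but Cnn1.

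Other genes of the contractile apparatus were compared as a list of 28 genes, of which 0 passed the adjusted threshold. Without adjustment 4 were higher and 0 lower at 0.05, against 3.19% and 2.63% of all genes tested. The median log2 fold change of the 28 was 0.17. The 4 genes, named here after their values were seen, were Cald1, Tpm2, Synpo2 and Sh3bgr. Caldesmon, the actin-binding protein of Cald1, had 156, 129.97 and 146 CPM in WT mice and 222, 206 and 255 CPM in IL-21isoTg mice. All IL-21isoTg mice were above all WT mice, mouse 3 included (log2 fold change 0.66, standard error 0.16, edgeR adjusted p = 0.736). Tpm2 had 118, 127 and 129.9 CPM against 232, 252 and 144 CPM. In all, 3 of the 28 genes, Cald1, Tpm2 and Csrp1, had every IL-21isoTg mouse above every WT mouse (5.54% of all genes tested), and 1, Rock1, had every one below (6.54%).

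The most abundant genes of the contraction list were Flna, Csrp1 and Myl6, of a filamin, a LIM protein and a myosin light chain, with log2 fold changes of 0.23, 0.32 and 0.16 (standard errors 0.22, 0.20 and 0.20). The largest fold change in the list was that of Sh3bgr, 1.13 (standard error 0.47), and the lowest that of Rock1, a kinase gene, -0.31 (standard error 0.14). Sh3bgr had 5.32, 3.17 and 3.64 CPM in WT mice and 8.36, 4.02 and 14.5 CPM in IL-21isoTg mice. It was thus highest in IL-21isoTg mouse 3, and IL-21isoTg mouse 2 lay within the WT range. Srf, the gene of serum response factor, named here for its link to the CArG boxes shown above, had -0.14 (standard error 0.19). Myocd, the gene of the smooth muscle coactivator of serum response factor, was at 1.77 to 2.70 CPM in all mice. Of 19 tested genes of the same families as the 10, such as Actb, Actg1 and Myh9, 0 had an unadjusted p under 0.05 (5.82% of all genes tested). The median log2 fold change of the 19 was -0.06.

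**Figure D4:**
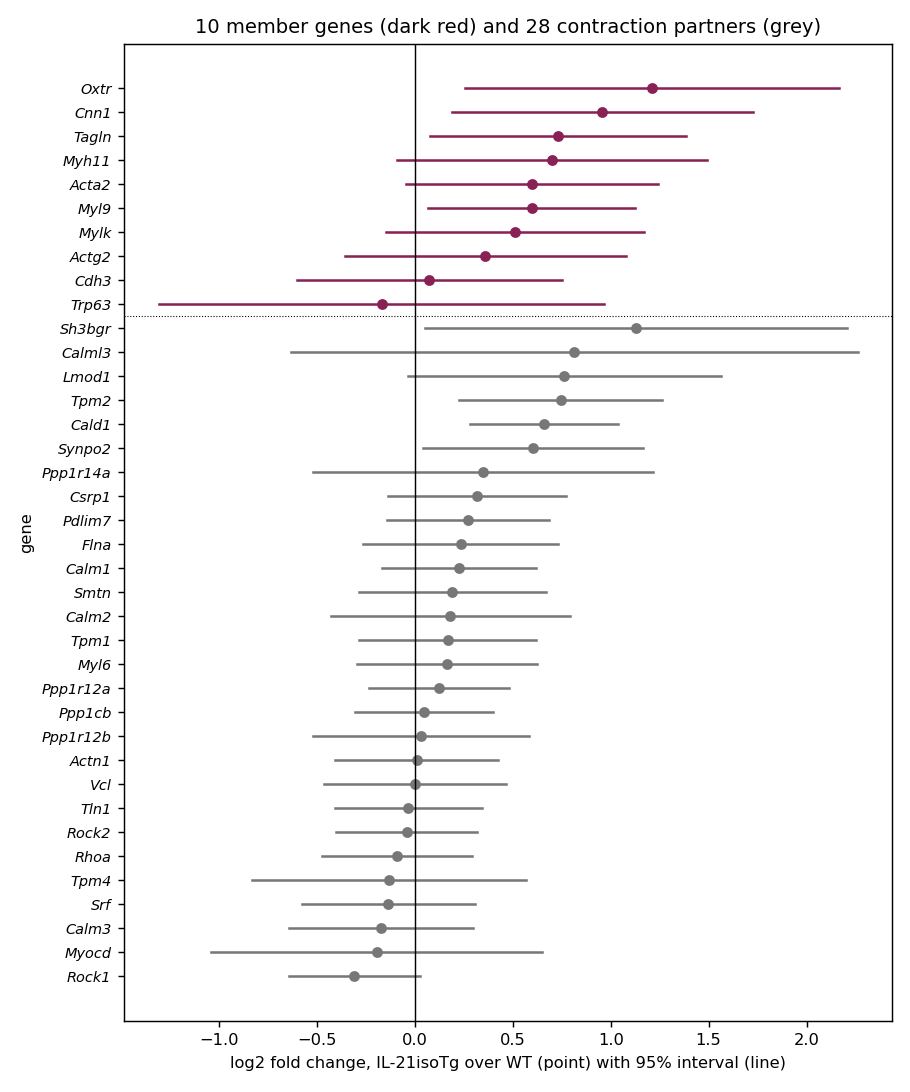
Log2 fold change of IL-21isoTg over WT MECs (points) with 95% intervals from edgeR's quasi-likelihood fit (lines) for the 10 genes and for 28 other genes of the contractile apparatus. The intervals of Oxtr, Cnn1, Tagln and Myl9 lie above 0 before adjustment, and those of Trp63 and Cdh3 reach to both sides.

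Downstream of the oxytocin receptor, 17 genes of its G protein, phospholipase and calcium signalling were examined. Of these 0 passed the adjusted threshold, and the median log2 fold change was 0.11. At an unadjusted p under 0.05, 2 were higher, Orai1 and Cacna1c (3.19% of all genes tested), and 0 lower (2.63%). Orai1, a calcium channel of the plasma membrane, had 16.6, 11.7 and 9.58 CPM in WT mice and 19.0, 22.1 and 20.6 CPM in IL-21isoTg mice (log2 fold change 0.71, standard error 0.24, edgeR adjusted p = 0.809). The most abundant genes of the list were Itpr3, the calcium pump gene Atp2b1 and the phospholipase gene Plcb4, with log2 fold changes of -0.13, -0.38 and 0.59 (standard errors 0.20, 0.24 and 0.48). Plcb4 had 65.2, 73.7 and 81.2 CPM in WT mice and 89.0, 42.4 and 201 CPM in IL-21isoTg mice.

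Of 24 markers of basal identity, 3 of them among the 10, 0 passed the adjusted threshold. Only Vim had an unadjusted p under 0.05 (5.82% of all genes tested), and the median log2 fold change of the 24 was 0.11. Krt14 had 327, 390.1 and 223 CPM in WT mice and 532, 393 and 326 CPM in IL-21isoTg mice. Krt5 had 264, 307 and 131 CPM against 349, 264 and 181 CPM. For each of these keratin genes WT mouse 3 was lowest and IL-21isoTg mouse 1 highest, and the genotypes overlapped (log2 fold changes 0.41 and 0.18, standard errors 0.27 and 0.35, edgeR adjusted p = 0.82 and 0.94).

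Contractile cells of vessel walls also express Acta2, Myh11, Cnn1 and Tagln and largely lack the 3 markers used for removal, so their genes are given beside those of the 10. Over 15 tested genes of pericytes and vascular smooth muscle the median log2 fold change was 0.27. Only Mcam of the 15 had an unadjusted p under 0.05 (5.82% of all genes tested). Their summed level was 251 to 554 CPM in WT mice and 299 to 508 CPM in IL-21isoTg mice, and all 15 passed the filter on low counts. Notch3 and Rgs5 had log2 fold changes of -0.24 and 0.31. The summed level of the 7 contractile genes was 1089, 1616 and 1545 CPM in WT mice and 2661, 2527 and 1489 CPM in IL-21isoTg mice. WT mouse 1 was lowest in both sums.

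The summed endothelial markers shared their 2 highest mice with the contractile sum, but were lowest in WT mouse 3 and not in WT mouse 1. All 8 endothelial markers were fitted higher in IL-21isoTg mice (47.9% of all genes tested), with a median of 0.84 on the log2 scale. Of these markers 3 were higher at an unadjusted p under 0.05 (Pecam1, Cdh5 and Cldn5, against 3.19% of all genes), and 0 passed the adjusted threshold. Their summed levels were 95.5 to 234 CPM in WT mice and 146 to 334.5 CPM in IL-21isoTg mice, highest in mice 1 and 2. Of 9 fibroblast markers 8 were fitted higher (47.9% of all genes), 3 of them at an unadjusted p under 0.05 (Col1a1, Col3a1 and Col1a2, against 3.19%). Of the 9, 0 passed the adjusted threshold, and the median log2 fold change was 0.58. Summed levels were 2020 to 3612 CPM in WT mice and 4498 to 5165 CPM in IL-21isoTg mice. The 10 keratinocyte markers, which matter because epidermis also carries Trp63 and Cdh3, summed to 48.1 to 537 CPM in WT mice and 87.1 to 351 CPM in IL-21isoTg mice, and were highest in WT mouse 2. Leukocyte markers were low, with summed levels of 19.1 to 34.2 CPM over 6 tested genes. The part of these cells in the levels of the 10 genes was not tested, nor was that of salivary gland cells. The summed level of the salivary gland genes was 53910 to 230800 CPM in WT mice and 42180 to 608400 CPM in IL-21isoTg mice. With these genes removed before scaling, the median log2 fold change of the 10 was 0.62 and 0 passed the adjusted threshold. In that edgeR fit 5 (Acta2, Cnn1, Tagln, Myl9 and Oxtr) were higher at an unadjusted p under 0.05, against 3.71% of all genes.

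**Figure D5:**
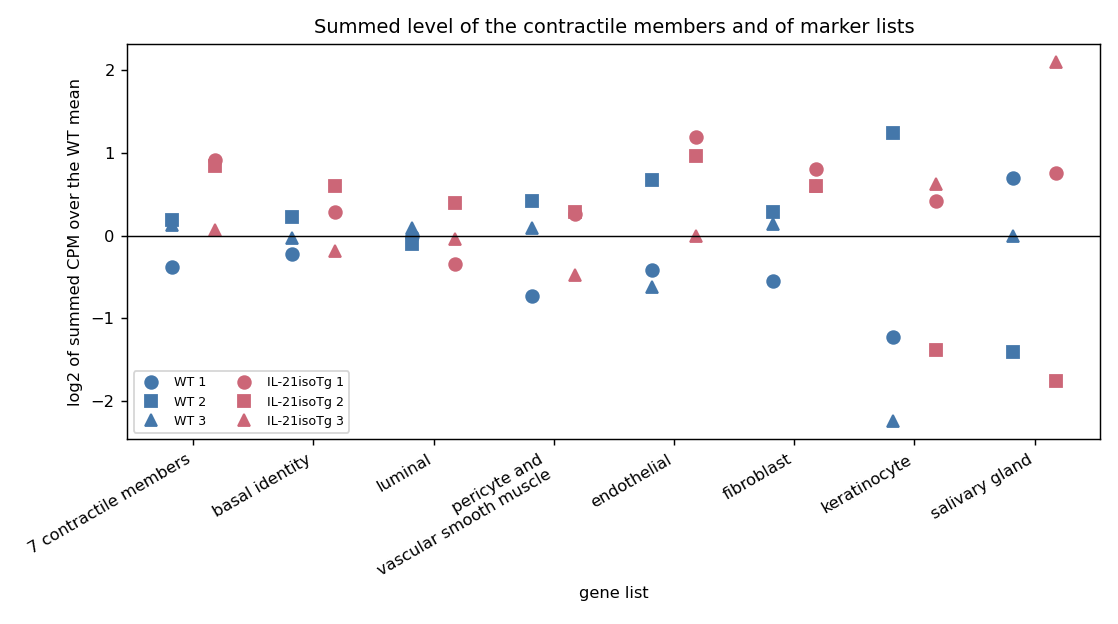
Log2 of the summed CPM of each gene list over its WT mean, for the 7 contractile genes and 7 marker lists, in WT (blue) and IL-21isoTg (red) mice. IL-21isoTg mice 1 and 2 are the highest for the contractile and the endothelial sums, and IL-21isoTg mouse 3 stands far above the rest for salivary gland genes.

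The number of the 10 genes at an unadjusted p under 0.05 changed when single mice were left out, which also leaves a genotype with 2 mice. Without IL-21isoTg mouse 3, the library with the largest salivary share, 6 of the 10 genes were higher at an unadjusted p under 0.05 (Acta2, Myh11, Cnn1, Tagln, Myl9 and Oxtr, against 3.51% of all genes), 0 passed the adjusted threshold, and Oxtr had a log2 fold change of 1.56. Without IL-21isoTg mouse 1 or 2, 0 of the 10 were (1.88% and 5.12% of all genes), and without WT mouse 1 only Actg2 was (3.72%). The log2 fold changes of Oxtr and Cnn1 were then 1.06 and 0.87 without IL-21isoTg mouse 1, 0.94 and 0.73 without IL-21isoTg mouse 2, and 0.97 and 0.74 without WT mouse 1. Without WT mouse 2 there were 4 (3.78%), and without WT mouse 3 there were 3 (2.03%). By DESeq2 there were 6 at an unadjusted p under 0.05 (3.98%), and with the mouse number as a block 2 (2.35%). With DESeq2's size factors in place of TMM, 1 of the 10, Myl9, had genotypes that did not overlap, against 12% of all genes.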

How the data were processed

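Raw counts per gene of 6 MEC libraries, 1 per mouse, were deposited by the authors without normalization. The submitters' processing notes name the build mm10 and the tools FastQC 0.11.7, Trimmomatic 0.38, HISAT2 2.1.0, SAMtools 1.9, featureCounts 1.6.3 and DESeq2 1.24.0, without settings. A size-factor-scaled copy and a table of the authors' fold changes and p-values were not used, apart from the gene positions in the latter, whose start and end equalled GENCODE M21 (GRCm38) for 31020 of 31286 shared identifiers and for all 10 genes.

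Genotypes came from the sample titles. Genes were filtered with filterByExpr (minimum count 10, total 15), normalized with TMM, and compared with edgeR 4.0.16's quasi-likelihood test (robust, genotype only) in R 4.3.3, with Benjamini-Hochberg adjustment over 17165 genes at 0.05. Standard errors are the log2 fold change divided by the root of F. CPM per kilobase used merged exon lengths. DESeq2 1.42.0, limma 3.58.1, other scalings, filters, a block for the mouse number, and fits without each mouse in turn were alternatives. The steps were tested on simulated data. Of 200 genes set there to a log2 fold change of 1, 0% were recovered, and of 200 set to 2, 71.5% were. The largest log2 fold change of the 10 genes was 1.21 (Oxtr). Floors of 3 counts equal 0.112 to 0.28 CPM and cover counting error only. P-values of edgeR's test set the genotype difference against the spread between mice, with dispersions moderated over all genes tested.

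The 10 genes and the marker lists were chosen with earlier results of these data known. Named genes are the 10, the 3 most abundant and the most changed (mean of at least 1 CPM) of each list, and the 5 nearest profiles to Acta2 and Trp63; some others, as stated, were named after their values were seen. Within each genotype, libraries differed from each other far beyond counting noise (chi-square per degree of freedom 110.0 to 632), so none was counted as a duplicate. A gene of the list of other contractile genes is not reported here and is in none of that list's counts.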

Additional observations from a re-analysis of the deposited data

How the results depend on the processing

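Under 16 alternatives per gene, Acta2, Actg2, Myh11, Mylk, Myl9, Cnn1, Tagln and Oxtr kept their direction, and none of the 10 genes passed the adjusted threshold. The count of the 10 genes past that threshold was 0 in each direction under every alternative run, and the median log2 fold change of the 10 stayed between 0.47 and 0.82. Oxtr ranged from 0.94 to 1.56, with adjusted p-values of 0.276 (DESeq2) to 0.994. Values moved by over 1.5 times when 1 mouse was left out for Mylk (0.29 without WT replicate 1, 0.30 without IL-21isoTg replicate 1), Myh11 (0.43 without WT replicate 1) and Actg2 (0.17 without WT replicate 2, 0.20 without IL-21isoTg replicate 2, 0.58 without IL-21isoTg replicate 3, 0.69 without WT replicate 1). Without single mice Trp63 ranged from -0.57 to 0.20 and Cdh3 from -0.14 to 0.42. The log2 fold change of Trp63 turned to 0.20 without WT replicate 1 and 0.08 without IL-21isoTg replicate 2, and that of Cdh3 to -0.14 without WT replicate 3 and -0.04 without IL-21isoTg replicate 1. With DESeq2's size factors, or with the salivary gland list removed, 1 gene, Myl9, had genotypes that did not overlap (12% and 12.1% of all genes under these settings). The numbers that mice share between genotypes are not said to mark a litter or day, and deviations of same-numbered mice correlated at -0.224, 0.0677 and -0.0619. With the replicate number as a block, the median was 0.56, Cnn1 and Oxtr were the 2 genes at an unadjusted p under 0.05, and 0 of the 10 passed after adjustment; the causes of these shifts were not tested. The block changed no adjusted call.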

Other observations

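Krt10, a keratin gene of the upper epidermis, had 1.49, 200.5 and 2.38 CPM in WT mice and 96.5, 1.41 and 114 CPM in IL-21isoTg mice, and Krt1 had 0.27, 131 and 0.31 CPM and 31.3, 0.63 and 29.8 CPM. The largest fold change of the keratinocyte list was that of Krt77, 1.37 on the log2 scale (standard error 1.58), and Lgals7, also among its most abundant genes, had -0.21 (standard error 0.33). In the same order of mice the keratinocyte sum was 97.1, 537 and 48.1 CPM and 303, 87.1 and 351 CPM, and Trp63 was 36.6, 30.2 and 9.63 CPM and 33.6, 14.3 and 20.1 CPM. The part of epidermal cells in the Trp63 level was not tested.

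Among luminal markers Elf5, a transcription factor gene named here after its values were seen, had 95.8, 128 and 131 CPM in WT mice and 231, 201 and 142 CPM in IL-21isoTg mice (log2 fold change 0.70, standard error 0.22, edgeR adjusted p = 0.809), and all IL-21isoTg mice lay above all WT mice. The most changed gene of the list, Cited1, went the other way, with 85.4, 90.5 and 98.8 CPM in WT mice and 52.3, 72.7 and 19.0 CPM in IL-21isoTg mice, all below the WT mice (log2 fold change -0.93, standard error 0.41, edgeR adjusted p = 0.809). The most abundant, Krt8, Krt18 and Krt19, had log2 fold changes of 0.09, 0.04 and 0.07. Over the 18 luminal markers the median log2 fold change was -0.11, with 8 genes above 0 (47.9% of all genes tested) and 10 below. At an unadjusted p under 0.05, 2 (Elf5 and Cd24a) were higher (3.19% of all genes) and 0 lower (2.63%).

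The other named genes had these log2 fold changes. Among basal markers Igfbp5 had 0.35 and Krt17 0.36. Among leukocyte markers Csf1r had -0.11, Ptprc 0.04, Lyz2 -0.23 and Cd3e, the most changed, 0.98 (standard error 0.45). Among skeletal muscle genes Mb had -0.55, Actn3 -0.34 and Acta1 -0.94, which, among genes with a mean of at least 1 CPM, was also the most changed of the families of the 10. Among salivary gland genes Bpifa2 had 1.02, Amy1 1.23, Smr3a 1.27 and Pip 1.29, with standard errors of 0.99 to 1.05. Among endothelial markers Vwf had 0.31, Pecam1 1.11, Cdh5 1.22 and Cldn5 1.67, and among fibroblast markers Col3a1 had 0.92, Col1a1 1.02 and Col1a2 0.85. None of these passed the adjusted threshold of edgeR's test.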
